A study of Triticum aestivum with 13 samples.

Results

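GA20ox1d encodes a gibberellin 20-oxidase of bread wheat, and its transcript was read in infested leaves by probe set Ta.141.1.S1_x_at, 1 of 61115 probe sets tested. A probe set is the group of short probes that reports 1 transcript on the Affymetrix wheat GeneChip. The gene was singled out because its signal was known to differ between lines, so its levels are given as a description, with no test. Leaves came from Tugela, a cultivar susceptible to the Russian wheat aphid (Diuraphis noxia), and from its near-isogenic resistant derivatives. According to the labels TugelaDn1 acts by antibiosis (it harms the aphid), TugelaDn2 by tolerance, and TugelaDn5 by antibiosis together with antixenosis (the aphid avoids it). All plants, Tugela included, carried 10 aphids of biotype SA1 per plant for 48 h, and every leaf except the first was harvested. Each line had 3 biological repeats, and 13 arrays gave 12 repeats because TugelaDn5 repeat 3 was hybridised again. No uninfested sample was analysed here, so differences between lines before infestation cannot be told apart from differences in their response. Fewer cells of a type and less RNA per cell cannot be told apart either in such leaf samples.

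Gibberellins are hormones that drive stem and leaf elongation, germination and flowering. Gibberellin 20-oxidases are dioxygenases that carry out successive oxidations late in the pathway and yield the direct precursors of the active hormones, and their transcripts are known to be held down by the hormone itself. In rice, loss of 1 such enzyme underlies semi-dwarf varieties. Bread wheat is hexaploid, with subgenomes A, B and D, and the closely related copies GA20ox1a, GA20ox1b and GA20ox1d are named after them.

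GA20ox1d was brightest in TugelaDn5 and dimmest in TugelaDn1. In Tugela its scaled intensity was 227.7 in repeat 1, 413.7 in repeat 2 and 371.9 in repeat 3. In TugelaDn1 the repeats had 216, 240.3 and 143.1. In TugelaDn2 they had 362, 247.4 and 191.4. These 9 values overlapped from line to line, as most probe sets did (6.39% had TugelaDn2 wholly above and 6.42% wholly below Tugela), with the lowest in TugelaDn1 repeat 3 and the highest in Tugela repeat 2. TugelaDn5 had 549.7, 523.9 and 768 in its repeats, all above every repeat of the other lines. Over all probe sets tested, 2.75% had the 3 TugelaDn5 repeats above the other 9 in this way. Pair by pair, 9.45% had TugelaDn5 above Tugela without overlap, 9.24% above TugelaDn1 and 8.59% above TugelaDn2, and in the opposite direction 8.63%, 8.57% and 7.63%.

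**Figure D1:**
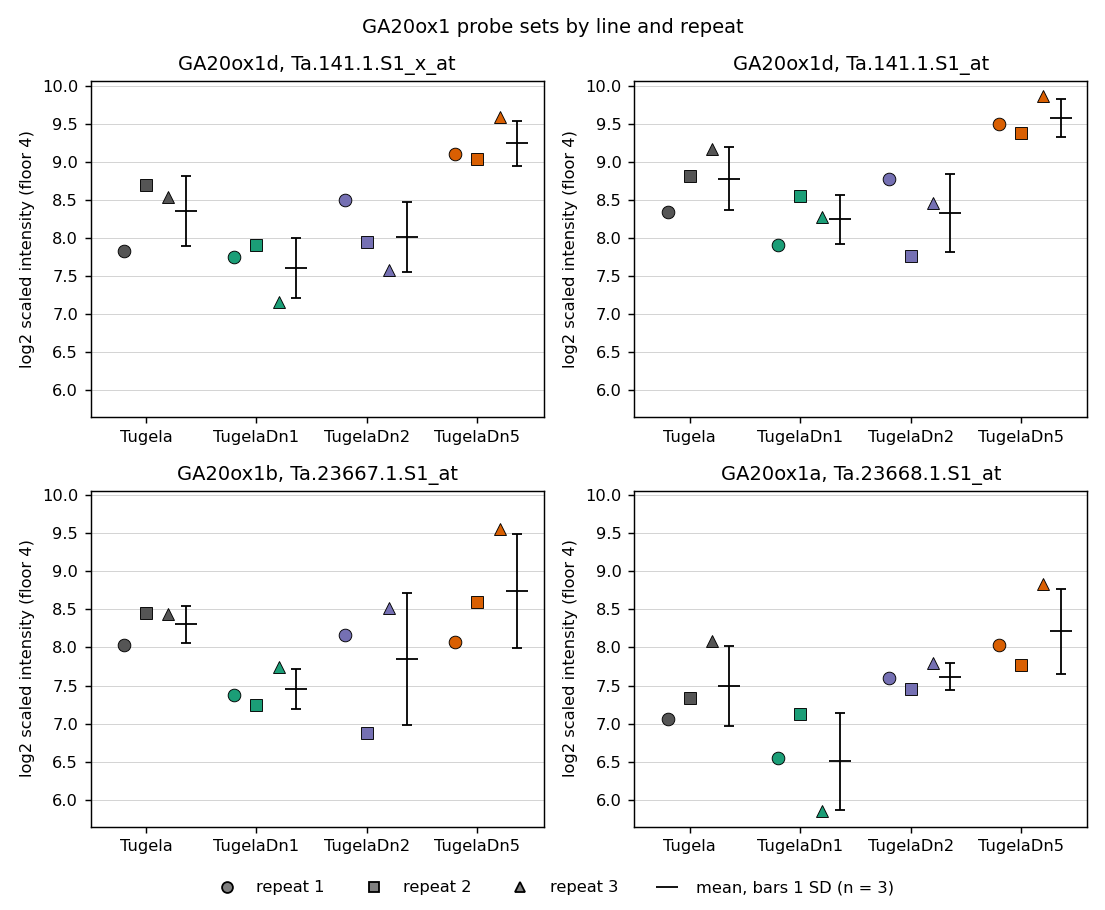
Log2 scaled intensity (y axis) of the GA20ox1 probe sets in each line (x axis). Points are biological repeats, and the bar beside them is the mean with 1 SD (n = 3). On both GA20ox1d probe sets the TugelaDn5 repeats lie above all others, whereas for GA20ox1b and GA20ox1a they overlap with repeats of Tugela and TugelaDn2. Heights cannot be compared between probe sets.

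On the log2 scale, where 1 unit is a doubling and values under an intensity of 16 were set to 4, the mean level of GA20ox1d was 9.24 ± 0.30 in TugelaDn5 (SD, n = 3). Tugela followed with 8.35 ± 0.46, then TugelaDn2 with 8.01 ± 0.46 and TugelaDn1 with 7.61 ± 0.39 (SD, n = 3 each). No repeat lay near the floor. The order of the line means from high to low was thus TugelaDn5, Tugela, TugelaDn2, TugelaDn1, an order shown by 4.13% of all probe sets. Neighbours below TugelaDn5 did not separate: the repeats of Tugela and TugelaDn2 overlapped by 0.67, and those of TugelaDn2 and TugelaDn1 by 0.33. Even Tugela and TugelaDn1 overlapped by 0.08. The lowest TugelaDn5 repeat stood 0.34 above the highest Tugela repeat, which is less than the pooled SD within lines of 0.41. It stood 0.53 above the highest TugelaDn2 repeat and 1.12 above the highest TugelaDn1 repeat.

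Expressed as differences, GA20ox1d was 3.10-fold higher in TugelaDn5 than in TugelaDn1 (log2 difference 1.63, SE 0.32), 2.35-fold higher than in TugelaDn2 (1.23, SE 0.32) and 1.85-fold higher than in Tugela (0.89, SE 0.32). Tugela was 1.68-fold above TugelaDn1 and 1.27-fold above TugelaDn2, and TugelaDn2 was 1.32-fold above TugelaDn1. Single repeats moved the smallest of these. TugelaDn2 minus Tugela was -0.34 on the log2 scale, but -0.61 or -0.17 when repeat 1 or repeat 2 of Tugela was left out, and -0.59 or -0.13 when repeat 1 or repeat 3 of TugelaDn2 was. TugelaDn1 minus TugelaDn2 was -0.40, but -0.18 without TugelaDn1 repeat 3, -0.16 without TugelaDn2 repeat 1 and -0.62 without TugelaDn2 repeat 3. The line means spanned 1.63 on the log2 scale, and 8.07% of all probe sets had a span at least as wide. These comparisons share samples, so TugelaDn5 enters each of the first 3 with the same repeats. Because the gene was picked for these values, no p is attached to them.

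The spread within lines was of moderate size. Between the highest and the lowest repeat GA20ox1d differed 1.82-fold in Tugela, 1.68-fold in TugelaDn1, 1.89-fold in TugelaDn2 and 1.47-fold in TugelaDn5. Its pooled SD of 0.41 compares with a median of 0.34 for probe sets within 0.5 log2 units of its level. The hybridisations of TugelaDn5 repeat 3 gave 850.1 and 693.9 for GA20ox1d, a log2 difference of -0.29. Both arrays were above the other repeats of that line. For probe sets within 0.5 log2 units of that level the SD of a single hybridisation, estimated from these arrays, was 0.15. The difference between the arrays has a larger SD, so the -0.29 cannot be set against 0.15 directly.

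GA20ox1d has a further probe set in the same transcript cluster, Ta.141.1.S1_at, and these 2 are all the probe sets of that cluster on the array. The names of the GA20ox1d probe sets end in _x_at for the first and in _at for the further one, called below the _x_at and _at probe sets of GA20ox1d. Names ending in _x_at mark probe sets with probes that can also match other transcripts, whereas _at marks those designed to be specific. The probes shared by these probe sets, or matching GA20ox1a and GA20ox1b, were not tested, since no probe sequences were used here. Both read the same RNA on the same arrays, so they are not independent evidence.

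On the _at probe set the Tugela repeats had intensities of 325.3, 451 and 576.5. The TugelaDn1 repeats had 239.4, 374 and 310.9. The TugelaDn2 repeats had 435.9, 218 and 350.9. As on the first probe set, repeats of these lines overlapped with one another. TugelaDn5 had 722.1, 665.9 and 928.5, again above all 9 other repeats. The line means fell in the same order, at 9.58 ± 0.25 in TugelaDn5, 8.78 ± 0.41 in Tugela, 8.33 ± 0.51 in TugelaDn2 and 8.24 ± 0.32 in TugelaDn1 (log2, SD, n = 3 each).

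As differences, the _at probe set was 2.52-fold higher in TugelaDn5 than in TugelaDn1, 2.37-fold higher than in TugelaDn2 and 1.74-fold higher than in Tugela. Tugela was 1.45-fold above TugelaDn1 and 1.36-fold above TugelaDn2, and TugelaDn1 and TugelaDn2 differed by 0.09 on the log2 scale. These values too are a description with no test, since they belong to the gene that was picked.

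**Figure D2:**
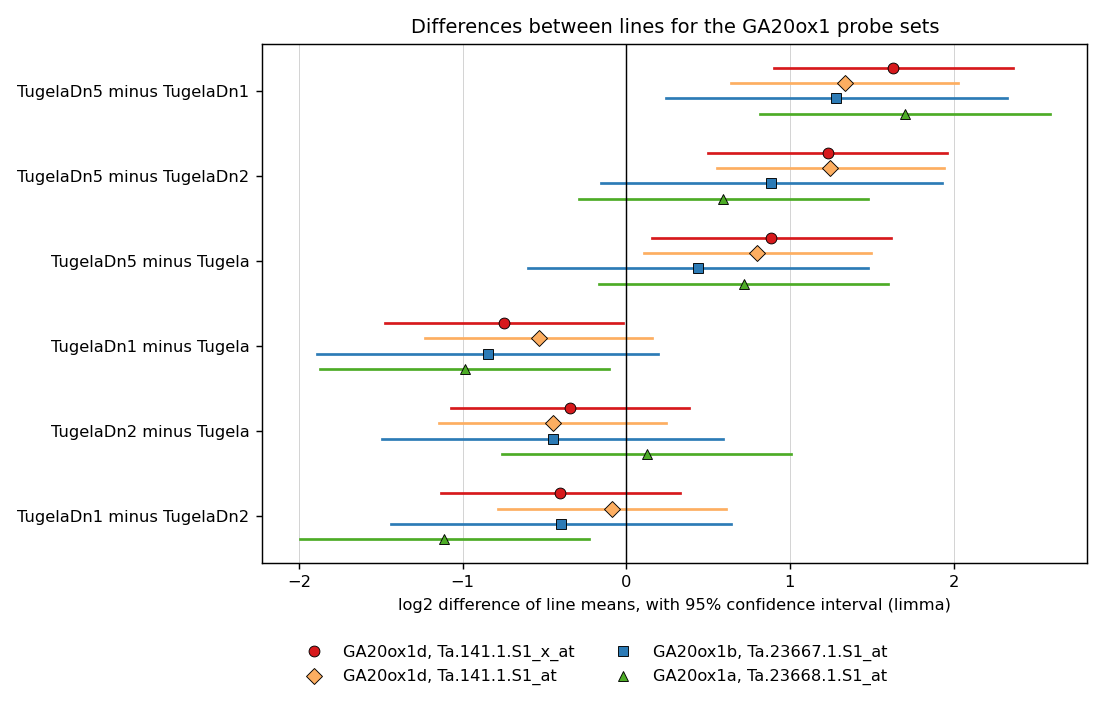
Log2 differences between line means (x axis) for each pair of lines (y axis) and each GA20ox1 probe set, with 95% confidence intervals from limma; those of both GA20ox1d probe sets are a description, as the gene was chosen on such values. TugelaDn5 minus TugelaDn1 is the pair with the highest value on each probe set, between 1.28 and 1.70.

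The other copies of the gene come next. GA20ox1b, the B subgenome copy read by Ta.23667.1.S1_at, had intensities of 260.7, 348.8 and 345.9 in the Tugela repeats. TugelaDn1 had 165.7, 151.7 and 214.9. TugelaDn2 had 286.9, 117.2 and 367.1, the widest spread of any line for this copy, at 3.13-fold. TugelaDn5 had 268.4, 387.1 and 750.8. Its repeat 3 was the brightest of all 12, and its repeat 1 lay among the Tugela repeats. The means were 8.74 ± 0.75 in TugelaDn5, 8.30 ± 0.24 in Tugela, 7.85 ± 0.87 in TugelaDn2 and 7.46 ± 0.26 in TugelaDn1 (log2, SD, n = 3 each), the order found for GA20ox1d.

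GA20ox1b did not pass the test in any pair of lines. All TugelaDn5 repeats lay above those of TugelaDn1, as they did for 9.24% of all probe sets (8.57% had TugelaDn5 wholly below). TugelaDn5 was 2.43-fold above TugelaDn1 (interval from 1.18 to 5.00, limma adjusted p = 0.252). Against TugelaDn2 the value was 1.85-fold (limma adjusted p = 0.565) and against Tugela 1.35-fold (interval from 0.66 to 2.78, limma adjusted p = 0.775). Without TugelaDn5 repeat 3 the log2 difference from Tugela was 0.03 instead of 0.44, that from TugelaDn2 was 0.48 instead of 0.89 and that from TugelaDn1 was 0.88 instead of 1.28. Without TugelaDn5 repeat 1 the difference from Tugela was 0.77, and without TugelaDn2 repeat 2 that from TugelaDn2 was 0.40. All 3 repeats of TugelaDn1 lay below those of Tugela for this copy (log2 difference -0.85, limma adjusted p = 0.748), as they did for 5.33% of all probe sets (5.41% had TugelaDn1 wholly above).

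GA20ox1a, the A subgenome copy read by Ta.23668.1.S1_at, had intensities of 133.3, 162.3 and 270.7 in Tugela. TugelaDn1 had 93.5, 139.5 and 57.7. TugelaDn2 had 193.8, 175.7 and 222.7, the tightest line for this copy. TugelaDn5 had 261.1, 218.2 and 457 and overlapped with both Tugela and TugelaDn2, but not with TugelaDn1. It was wholly above TugelaDn1, as in 9.24% of all probe sets (8.57% had it wholly below). The means were 8.21 ± 0.56 in TugelaDn5, 7.62 ± 0.17 in TugelaDn2, 7.49 ± 0.53 in Tugela and 6.51 ± 0.64 in TugelaDn1 (log2, SD, n = 3 each). Here TugelaDn2 stood above Tugela, by 0.12 (interval from -0.76 to 1.01), so their order is within the spread.

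For GA20ox1a TugelaDn5 was 3.26-fold above TugelaDn1 (interval from 1.77 to 6.02, limma adjusted p = 0.069). It was 1.64-fold above Tugela (interval from 0.89 to 3.04, limma adjusted p = 0.508) and 1.51-fold above TugelaDn2 (interval from 0.82 to 2.78, limma adjusted p = 0.698). TugelaDn1 was lowest: the log2 difference was -1.11 from TugelaDn2, with no overlap (limma adjusted p = 0.44; 6.47% of all probe sets had TugelaDn1 wholly below and 6.56% wholly above TugelaDn2), and -0.99 from Tugela (limma adjusted p = 0.656). Without TugelaDn5 repeat 3 the log2 difference of TugelaDn5 from Tugela was 0.41 instead of 0.72 and that from TugelaDn2 was 0.28 instead of 0.59.

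TugelaDn5 thus had the highest and TugelaDn1 the lowest mean on the GA20ox1d probe sets and on those of GA20ox1a and GA20ox1b, an arrangement that 9.33% of all probe sets shared. Of the 2 probe sets of GA20ox1a and GA20ox1b, 0 were called in TugelaDn5 against TugelaDn1, where 1.9% of all probe sets were called (0.707% higher and 1.19% lower in TugelaDn5). Likewise 0 of 2 were called in TugelaDn5 against Tugela, beside 2.07% of all (0.82% higher and 1.25% lower), and in TugelaDn5 against TugelaDn2, beside 1.29% (0.425% higher and 0.864% lower). In the pairs without TugelaDn5 0 of 2 were called as well, beside 0.00818% in TugelaDn1 against Tugela (0.00164% higher and 0.00655% lower). The shares of all probe sets were 0.0376% in TugelaDn2 against Tugela (0.018% higher and 0.0196% lower) and 0.0736% in TugelaDn1 against TugelaDn2 (0.0409% higher and 0.0327% lower). At an unadjusted limma p under 0.05 both passed in TugelaDn5 against TugelaDn1, as did 13.3% of all probe sets. GA20ox1a also passed in TugelaDn1 against Tugela (7.23% of all) and against TugelaDn2 (8.99%). Neither did in TugelaDn5 against Tugela (13.1% of all), in TugelaDn5 against TugelaDn2 (10.9%) or in TugelaDn2 against Tugela (8.23%). For TugelaDn5 minus TugelaDn1 the log2 difference was 1.70 for GA20ox1a and 1.28 for GA20ox1b, beside a median of 0 over all probe sets tested. For TugelaDn5 minus TugelaDn2 these values were 0.59 and 0.89, beside 0.01. For TugelaDn5 minus Tugela they were 0.72 and 0.44, beside 0.

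Repeats that were high or low for one copy were in part high or low for the others. TugelaDn5 repeat 3 lay above its line mean on each GA20ox1 probe set, by 0.34 and 0.28 for GA20ox1d, 0.81 for GA20ox1b and 0.62 for GA20ox1a on the log2 scale. Tugela repeat 1 lay below its line mean on each, with deviations from -0.52 to -0.28. TugelaDn1 repeat 3 showed no such accord, at -0.45 on the _x_at probe set and -0.66 for GA20ox1a, but 0.04 on the _at probe set and 0.29 for GA20ox1b. TugelaDn2 repeat 2 was low on the _at probe set (-0.56) and for GA20ox1b (-0.98), but near its line mean on the _x_at probe set (-0.06).

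**Figure D3:**
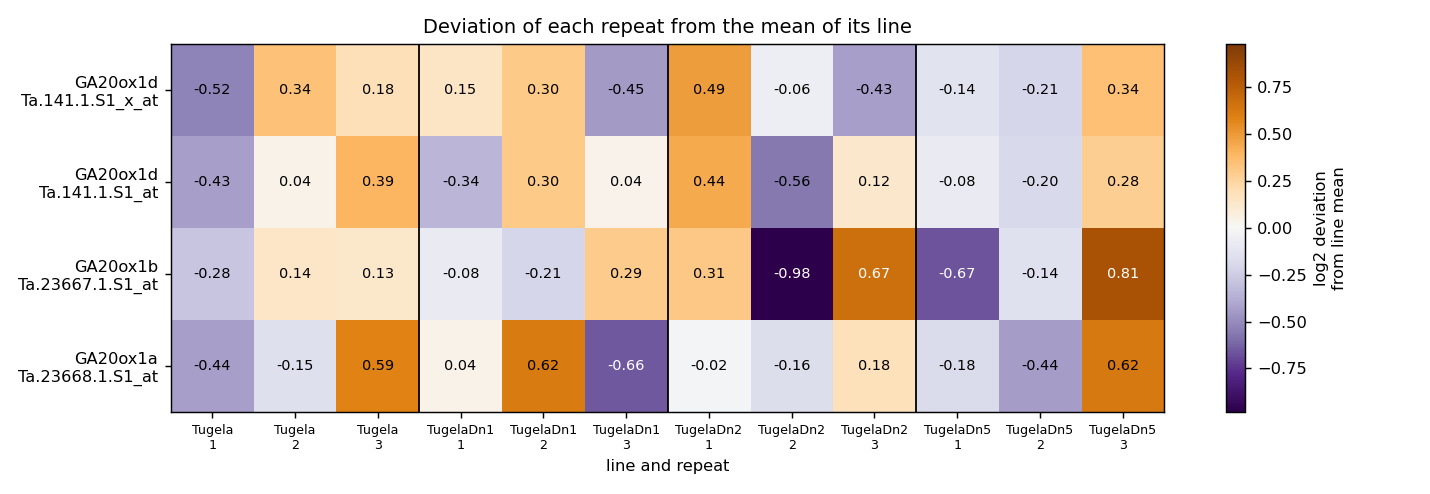
Deviation of each repeat (columns, grouped by line) from the mean of its line on the log2 scale, for the GA20ox1 probe sets (rows). Orange is above and purple below the line mean; TugelaDn5 repeat 3 is above it in every row, from 0.28 to 0.81, and Tugela repeat 1 below it in every row.

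Over the 12 repeats, the _x_at probe set of GA20ox1d correlated at r = 0.87 with the _at one, 0.82 with GA20ox1a and 0.66 with GA20ox1b. With line means subtracted these values were 0.54, 0.62 and 0.17. The points share arrays, lines and possibly probes, and the values are a description.

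Among the other 31409 probe sets above the floor in all 12 repeats, the pattern of GA20ox1d (_x_at) was compared by Pearson's r over the 12 repeats. The median r was 0.03, and 9 probe sets reached 0.9. Of the 880 paired with a gene, LOC543018 on Ta.26917.1.S1_at was most alike (r = 0.92, 0.72 within lines). Its means were 12.55 ± 0.14 in TugelaDn5, 12.08 ± 0.12 in Tugela, 11.93 ± 0.43 in TugelaDn2 and 11.74 ± 0.11 in TugelaDn1 (log2, SD, n = 3 each), and TugelaDn2 repeat 3 was its dimmest repeat. The next was the _at probe set of GA20ox1d itself. LOC100049043 on Ta.13189.1.S1_at followed (r = 0.86), then LOC542881 on Ta.3677.1.S1_at and LOC543171 on Ta.28321.2.S1_x_at (r = 0.83 each). LOC543171 was dimmest in TugelaDn1 (14.06 ± 0.10) and brightest in TugelaDn5 (14.79 ± 0.04, log2, SD, n = 3 each). The tables used here give these LOC genes no name.

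Without regard to genes, TaAffx.13785.2.S1_s_at had the highest r (0.95, and 0.93 within lines), although its line means spanned only 11.53 to 11.81. Ta.6936.1.S1_a_at followed (r = 0.93), then Ta.26917.1.S1_at, TaAffx.124207.1.S1_at and Ta.5213.1.A1_at. At the opposite end were LOC542814 on Ta.1868.1.S1_x_at (r = -0.80), the profilin gene LOC543315 on Ta.5057.1.S1_x_at (r = -0.79) and LOC543347 on Ta.3424.1.S1_at (r = -0.78). Profilin binds actin monomers. Its means ran from 13.67 ± 0.11 in TugelaDn5 to 13.94 ± 0.10 in TugelaDn1 (log2, SD, n = 3 each), a narrow range beside that of GA20ox1d.

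**Figure D4:**
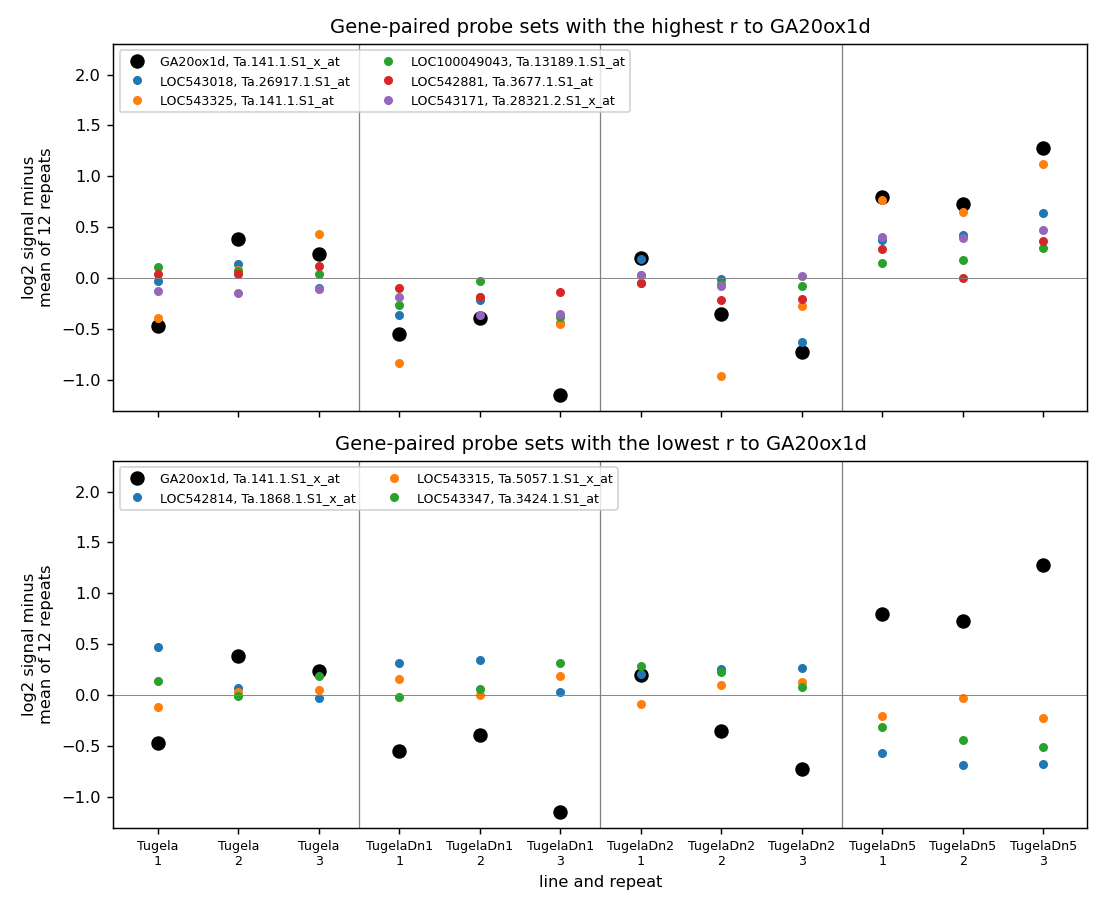
Log2 signal minus the mean of the 12 repeats (y axis) in each repeat (x axis, grouped by line). Black points are GA20ox1d and coloured points are the gene-paired probe sets with the highest (upper panel) and lowest (lower panel) r to it. In the mean the former are highest and the latter lowest in TugelaDn5, but some single TugelaDn5 repeats lie among those of other lines, as for LOC542881 and LOC543315.

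No other gibberellin gene, no other dioxygenase and no gene of another hormone could be matched by symbol in the probe tables. A growth and cell wall list, filled by symbol with tubulins, histones and XTH, held 29 probe sets of 12 genes. In TugelaDn5 against TugelaDn1, 1 of the 29 was called, the beta-tubulin tubb2 on Ta.1544.1.S1_at (log2 difference 1.01, limma adjusted p = 0.0326), beside 1.9% of all probe sets (0.707% higher in TugelaDn5). In TugelaDn5 against Tugela the beta-tubulin Tubb5 was called on Ta.214.2.A1_x_at (1.07, limma adjusted p = 0.0472), again 1 of 29 beside 2.07% of all (0.82% higher). With 1 call in each pair, the list cannot be told apart from these shares. In the 4 other pairs 0 of 29 were called. The median log2 difference of the list was 0.26 for TugelaDn5 minus TugelaDn1, with 15 of 29 above 0, and 0.22 for TugelaDn5 minus Tugela, with 19 of 29 above 0. It was 0.27 for TugelaDn5 minus TugelaDn2, with 21 of 29 above 0. A pair without TugelaDn5 had the highest median, 0.29 for TugelaDn1 minus TugelaDn2, with 18 of 29 above 0. The medians were -0.09 for TugelaDn1 minus Tugela and 0.00 for TugelaDn2 minus Tugela. Over all probe sets the medians lay between -0.01 and 0.01. The widest span of line means belonged to the histone gene wcH2B-8 on Ta.7378.35.S1_x_at, at 7.14 ± 0.31 in TugelaDn5 and 5.21 ± 1.12 in Tugela (log2, SD, n = 3 each), which did not pass (limma adjusted p = 0.0766). Next came wcH2A-9 on Ta.27657.14.S1_x_at, at 6.39 ± 0.53 in TugelaDn5 and 4.66 ± 1.14 in TugelaDn1 (n = 3 each, limma adjusted p = 0.402). The lower mean of each of these probe sets lay near the floor of 4, so their spans rest on weak signal. A different wcH2B-8 probe set, Ta.7378.1.S1_at, was dimmest in TugelaDn5, at 5.32 ± 1.23 (n = 3), also near the floor. Tubb5 on Ta.214.2.A1_at was brightest in TugelaDn5, at 8.90 ± 0.15 (n = 3), but did not pass against Tugela (log2 difference 1.45, limma adjusted p = 0.223). Nor did the remaining Tubb5 probe sets in that pair (0.92, limma adjusted p = 0.149, and 0.31, limma adjusted p = 0.731).

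Some markers of leaf tissue were bright and others were at the floor. The photosystem genes PsbO and PsbP had log2 levels no lower than 16.08 and 15.05 in any repeat on their brightest probe sets, and the Calvin cycle gene PRK no lower than 13.76. Of the 36 leaf probe sets of 6 genes, 15 were at the floor in at least 1 repeat, most of them of rbcl, and 24 to 27 were above it in all repeats of a line. On its brightest probe set, however, rbcl was no lower than 16.51 in any repeat, the highest such value of the list. The summed signal of the leaf list ranged from 18.55 to 18.85 in TugelaDn5 and from 18.55 to 19.24 in the other lines (log2). Other summed levels were somewhat higher in TugelaDn5. No background was computed for such sums, and of single probe sets 2.75% had all TugelaDn5 repeats above the other 9. The growth and cell wall list summed to between 15.45 and 15.55 in the TugelaDn5 repeats and between 15.09 and 15.36 in the other 9 repeats, and its 5 brightest probe sets, all tubulins, held 81.7% to 88.1% of that signal. A list of 17 grain storage protein probe sets of 8 genes summed to between 13.42 and 13.48 in TugelaDn5 and to at most 13.38 elsewhere, mostly through 1 probe set of avnlb, while its 16 other probe sets stayed below 8 in all repeats. In each pair of lines 0 of the leaf probe sets were called, and 1 of the 17 grain probe sets was called, lower in TugelaDn5 than in Tugela, where 1.25% of all probe sets were called lower. The part of these lists in the level of GA20ox1d was not tested. Measures of the arrays overlapped between TugelaDn5 and the rest. The log2 ratio of the 3′ to the 5′ ubiquitin control was -1.27 to -1.12, inside the range of the other lines. For the sucrose synthase control that ratio was 4.80 to 6.59 against 4.34 to 6.47, so the highest array was of TugelaDn5. For the G6PDH control it was 2.18 to 3.10 against 1.61 to 3.18. Median intensity was 84.9 to 89.2 against 82.5 to 98.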

How the data were processed

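Total RNA of infested wheat leaves was labelled and hybridised to single-colour GeneChips. The authors deposited linear intensity values per probe set, and the trimmed mean of each array, leaving out the top and bottom 2%, was 500.1. The sources used here do not name the summarising software. A floor of 16 was applied before log2. The arrays of TugelaDn5 repeat 3 were averaged. Of 61290 probe sets, 175 controls or reporters were left out, and the other 61115 entered a limma 3.58.1 model (eBayes, R 4.3.3) with all 4 lines in 1 fit, no covariate and no other filter. Benjamini-Hochberg adjustment was applied within each of 6 pairs of lines, with calls under 0.05. P-values set a line difference against the spread between repeats, pooled over the 4 lines and drawn by eBayes towards that of all probe sets. With 3 repeats a line, the precision is limited. TugelaDn2 and TugelaDn5 samples are described as TugelaDn1 in 1 label, against title and genotype, which were followed.

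Genes came from the platform's probe table with symbols of the RefSeq table for assembly IWGSC CS RefSeq v2.1, which paired 1273 probe sets with a gene. The gene, the lists and the rule for named genes were chosen with earlier results of these data known. The rule named the GA20ox1 probe sets, the 5 highest by r of all, the 5 highest and 3 lowest by r with a gene, and the 4 growth members with the widest span of line means. The called tubb2 and Tubb5 probe sets were named, and the remaining Tubb5 probe sets added, after their values were seen. Transcript clusters were read from the probe set names. The growth and grain lists were filled by symbol after the data were seen. Alternatives varied the floor, scaling, arrays, repeats, filter, variance model, block and samples in the fit.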

Additional observations from a re-analysis of the deposited data

How the results depend on the processing

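GA20ox1d on its _x_at probe set kept the sign of each of its 6 line differences, and each moved by less than its pooled SD within lines. The alternatives were 3 other floors, 2 scalings, either array of TugelaDn5 repeat 3 alone and the removal of any 1 repeat. The floors, at most 64, could not move these values, as the lowest repeat had 143.1. Nor could the removal of a repeat from a line outside the pair, or the choice of a TugelaDn5 array in pairs without TugelaDn5. TugelaDn5 minus TugelaDn1 ranged from 1.41 to 1.78, TugelaDn5 minus TugelaDn2 from 1.01 to 1.47 and TugelaDn5 minus Tugela from 0.62 to 1.06 on the log2 scale. TugelaDn1 minus Tugela ranged from -1.01 to -0.52, TugelaDn2 minus Tugela from -0.61 to -0.13 and TugelaDn1 minus TugelaDn2 from -0.62 to -0.16.

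The _at probe set of GA20ox1d was counted beside GA20ox1a and GA20ox1b in the alternatives. It is not independent of the choice of the gene, so its calls are a description and no test. In TugelaDn5 against TugelaDn1 the number of these 3 called was 0 here and from 0 to 1 when a repeat was left out. The 1 was the _at probe set, without TugelaDn2 repeat 2, beside 1011 of all 61115 probe sets. The number called was 2 among probe sets above the median level and 2 under eBayes with trend and robust (the _at probe set of GA20ox1d, and GA20ox1a). Of all probe sets in these fits, 1946 and 2257 were called in that pair. The former fit held only probe sets above the median level and the latter all 61115, so counts from these fits have unlike totals. In TugelaDn5 against TugelaDn2 the number was 1 in each of these fits, beside 1155 and 1416 of all probe sets. That 1 was the _at probe set of GA20ox1d, so neither GA20ox1a nor GA20ox1b was called there. With the replicate block the number was 0 in each pair. Same-numbered repeats did not deviate together (r from -0.03 to 0.05 across all probe sets), so the numbers were not read as pairs.

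The number of all probe sets called varied more. For TugelaDn5 against TugelaDn1 it was 1159 here, 768 with the replicate block, 490 with only these lines in the fit and 2257 under trend and robust. Over all alternatives it ranged from 725 to 2375 for TugelaDn5 against Tugela (1266 here), from 455 to 1416 for TugelaDn5 against TugelaDn2 (788), from 1 to 64 for TugelaDn1 against Tugela (5), from 8 to 254 for TugelaDn2 against Tugela (23) and from 9 to 331 for TugelaDn1 against TugelaDn2 (45). By Spearman's rho, 3 of the 5 gene-paired probe sets most like GA20ox1d stayed among the first 5, and of the 5 most alike of all probe sets 1 did. The cause of these changes was not tested.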
